A study of Mus musculus with 12 samples.

Results

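The SM/J mouse is an inbred strain that closes ear punch holes poorly. Its response to such an injury was followed here on 6 of the 12 bead arrays of the series, chosen by their titles. The 3 SM/J day 7 arrays (replicates 1, 2 and 3) hold RNA of ear tissue from around a punch made 7 days earlier, and the 3 SM/J uninjured arrays (replicates 2, 4 and 5) hold RNA of normal ear of the same strain. The other 6 arrays are of LG/J, a strain that closes such holes readily, with 3 at day 7 after the punch and 3 uninjured. Their changes are described only where the strains are set against each other. These arrays also share the normalization, the probe filter and the estimate of spread behind the SM/J p-values. The labels give no age or sex, no width of the rim that was taken and no time other than day 7. Nor do they say whether each array stands for a mouse of its own, and p-values therefore cover the spread among these samples, which may be technical.

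The mouse ear is a sheet of elastic cartilage with thin layers of fat, striated muscle and nerve, covered by hairy skin on both faces. After a wound, keratinocytes at the edge switch to a set of keratins and envelope proteins that they lack at rest, and move over the gap. Neutrophils and then macrophages enter, drawn by chemokines, and fibroblasts lay down a provisional matrix that metalloproteases remodel. Where an ear hole closes fully, new cartilage, hair follicles, fat and nerve fill it. Defining markers of these tissues were looked up on the 6 arrays. All measured markers of keratinocytes (3 of 3), fibroblasts (5 of 5), cartilage (3 of 3), muscle (4 of 4), melanocytes (3 of 3), endothelium (2 of 2), macrophages (2 of 2) and Schwann cells (1 of 1) lay above the background limit on all 6 arrays. Of 3 adipocyte markers Plin1, a lipid droplet coat protein, did not do so at day 7, and of 4 neutrophil markers Cxcr2, a chemokine receptor, did not do so in uninjured ear.

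Levels are given as normalised log2 intensities, on which 1 unit is a 2-fold difference, and levels of different genes are not compared. The background limit lay between 5.75 and 5.83 on this scale. Of the 45281 probes of each array, 52.4% to 55.0% lay above it, and the median intensity ran from 95.9 to 118 over the 12 arrays. Arrays stood apart within both SM/J groups. Uninjured replicate 2 had 134 features more than 1 unit higher and 211 more than 1 unit lower than the other uninjured arrays, which lay within 0.5 of each other there. Day 7 replicate 1 had 128 such features higher and 7 lower, and the other 4 SM/J arrays had at most 5 either way. Among the LG/J arrays, uninjured replicate 4 had a median absolute difference of 0.30 and 0.29 from the other uninjured ones, which differed from each other by 0.15. Where a list's count moved by over 1.5 times, to or from at least 3 genes, when 1 array was left out, its lowest or highest count is given with that array. The first principal component of the SM/J arrays held 63.6% of the variance and parted day 7 (scores of -45.8, -32.5 and -29.7) from uninjured ear (30.4, 38.6 and 38.9).

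Of 24690 features tested with limma, 2534 (10.3%) were called at an adjusted p under 0.05. At day 7, 1397 (5.66%) were higher and 1137 (4.61%) were lower. The rises were larger. At least 2-fold changes were called in 492 features higher (1.99%) and 203 lower (0.822%). The day 7 arrays all lay above the uninjured arrays in 15.6% of features and all below in 16.4%. The split of the calls depended on the scaling, since 55.1% of calls were rises with quantile normalization and 27.7% with median scaling (677 higher and 1770 lower). The count also depended on single arrays. It was 1454 without SM/J day 7 replicate 1, 1507 without SM/J uninjured replicate 5, 1532 without SM/J uninjured replicate 4, 1682 without SM/J day 7 replicate 2 and 4456 without LG/J uninjured replicate 4. Of the calls, 721 of the 1397 rises and 494 of the 1137 falls were made in each of the 12 fits that left out 1 array, and the genes named below as changed are among these unless stated. Where all 3 arrays of 1 group lay below the background limit, the fold is given as a lower bound against that limit.

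Genes of the activated wound edge were among the largest rises. Krt16, a keratin of wound-edge keratinocytes, had levels of 14.76, 14.50 and 14.45 at day 7, against 8.33, 9.07 and 8.62 in uninjured ear. All day 7 arrays lay over 5 units above all uninjured ones, a 59.6-fold difference (log2 change 5.90 ± 0.23, SE, n = 3 arrays per group, limma adjusted p = 2.9e-09). Of 4 wound keratins 3 rose. The other is Krt17, which hair follicles also make at rest, with 14.02, 13.88 and 13.88 at day 7, against 13.96, 13.90 and 13.72 in uninjured ear. Its change was 0.07 with a 95% interval of -0.24 to 0.38. In bulk tissue a change in the number of cells of a type and a change in RNA per cell cannot be told apart.

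**Figure D1:**
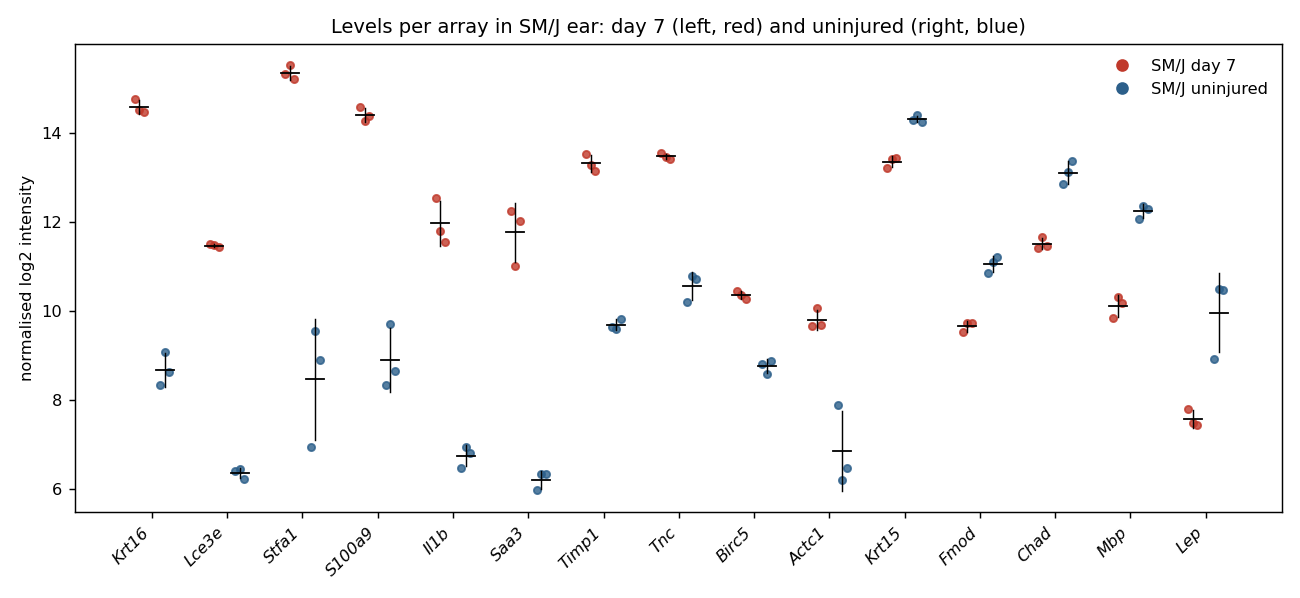
Normalised log2 intensity (y axis) of 15 genes on each SM/J array, with day 7 in red left of uninjured in blue. Dots are arrays, and bars show the mean and SD of 3 arrays. The groups do not overlap for any of the 15 genes, and the uninjured arrays are spread most for Stfa1, Lep and Actc1.

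The envelope genes that keratinocytes switch on after injury moved with these keratins. Of 17 small proline-rich and late cornified envelope 3 genes 14 rose, 0 fell, and the median change was 3.70, beside a median of -0.00 over all features. Lce3e, an envelope protein gene of injured and psoriatic epidermis, stood at 11.49, 11.47 and 11.42 at day 7, against 6.41, 6.45 and 6.23 in uninjured ear (5.10 ± 0.17, adjusted p = 5.4e-10). Sprr2k was below the limit in uninjured ear and at least 24.1-fold higher at day 7. The resting cornified envelope moved less, with 10 of 24 genes up, 0 down and a median of 0.32. This count was 6 without SM/J uninjured replicate 5. Its largest rise was of Rptn, the gene of repetin, by 2.83 ± 0.16, and the protease gene Casp14 of the outermost layers rose by 1.70.

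The stefin A genes, inhibitors of cysteine proteases, rose in 8 of 10 cases with a median of 4.67. Stfa1 had 15.31, 15.51 and 15.20 at day 7, against 6.94, 9.55 and 8.90 in uninjured ear. Uninjured replicate 2 was the lowest by about 2 units, and the change was 6.88 ± 0.47. Probes of this family may read several of its members, so the single members are uncertain. Of 21 epidermal proteases and inhibitors 9 rose and 0 fell, led by Spink7 (4.89 ± 0.26), an inhibitor of serine proteases, and the kallikrein gene Klk13 (3.38 ± 0.18). The gap junction genes Gjb6 and Gjb2 rose by 2.92 and 1.86, among 4 of 15 desmosome and gap junction genes that rose and 1 that fell, with 4 falls without LG/J uninjured replicate 4.

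Genes of the resting epidermis moved in both directions. Of 8 resting epidermal keratins 1 rose, 3 fell and 4 were not called, with a median of -0.29, and the falls were 1 without SM/J day 7 replicate 1. Krt1, a keratin of the layers above the basal one, rose by 1.90 ± 0.20 (adjusted p = 3.5e-05), the largest change of this list. Krt14, a keratin of the basal layer, was not called (0.10, adjusted p = 0.69). Krt15, a keratin of basal and follicle stem cells, had 13.21, 13.41 and 13.43 at day 7, against 14.29, 14.38 and 14.25 in uninjured ear. The groups did not overlap and were tight, and the fall was of 0.96 on the log2 scale (adjusted p = 0.00031). Of 23 genes of hair follicle stem cells and sebaceous glands 13 fell and 1 rose, with a median of -0.67. They included Sox9 (-1.07), a transcription factor of follicle stem cells and of cartilage, Lgr6 (-0.83), a receptor gene of follicle progenitors, and Fgf18 (-1.05), a growth factor of the resting follicle. The exception was Lgr5 (0.80), a stem cell receptor gene, which was not called in all 12 fits.

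Neutrophil genes formed the next group. Of 18 measured 13 rose and 1 fell, with a median of 1.56. S100a9, a subunit of calprotectin made by neutrophils and by injured epidermis, had 14.56, 14.27 and 14.36 at day 7, against 8.35, 9.70 and 8.65 in uninjured ear (5.50 ± 0.27). Receptors and secreted proteins of myeloid cells rose as well: Fpr2, a receptor for formylated peptides, by 4.25, Retnlg, a resistin-like secreted protein, by 3.60 ± 0.38, and Clec4d, a C-type lectin receptor, by 3.29. The gene that fell was Mpo, the peroxidase of granules made in neutrophil precursors. Its levels were 8.32, 9.05 and 8.18 at day 7, against 9.98, 10.34 and 10.41 in uninjured ear, with no overlap (-1.73 ± 0.27, adjusted p = 0.0010).

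The chemokines that draw these cells rose with them. Of 10 CXC chemokines 6 rose, with a median of 1.61. Cxcl2, a ligand of the neutrophil receptor Cxcr2, stood at 10.55, 9.19 and 9.14 at day 7, against 5.29, 5.06 and 5.44 in uninjured ear. All uninjured arrays were below the limit and day 7 replicate 1 was the highest, so that the rise was at least 14.3-fold (adjusted p = 1.3e-05). Of 25 CC chemokines and receptors 9 rose and 2 fell, the falls being 4 without LG/J uninjured replicate 4. Ccl4, Ccl3 and Ccl8, ligands for monocytes and lymphocytes, led at 5.44, 3.45 and 3.54. The falls of Ccl24 (-0.90), an eosinophil ligand, and Cx3cl1 (-0.72), a membrane-bound ligand, were not called in all 12 fits.

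Cytokine genes rose along 3 lines. Of 16 interleukin 1 family and inflammasome genes 6 rose, 0 fell, and Il1b, the central cytokine of the group, had 12.53, 11.80 and 11.55 at day 7, against 6.49, 6.95 and 6.81 in uninjured ear (37.0-fold, 5.21 ± 0.43). Il33, an alarm cytokine of the epithelium that was already well above the limit at rest, rose by 1.04. Of 16 interleukin 6 family and Stat3 target genes 9 rose and 0 fell, with a median of 1.06, among them the ligands Osm (2.88) and Il11 (1.69) and the feedback inhibitor Socs3 (1.64 ± 0.17). Il19, a cytokine of the interleukin 10 family that acts on keratinocytes, was at least 3.19-fold higher. Of 26 Toll-like receptor and NF-kappaB feedback genes 13 rose and 0 fell, a count of 8 without SM/J day 7 replicate 1.

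An acute phase gene and an antimicrobial gene were among the 25 largest rises without overlap. Saa3, an acute phase protein made in injured tissue, stood at 12.25, 11.00 and 12.02 at day 7, against 5.98, 6.33 and 6.33 in uninjured ear, a 46.6-fold difference (adjusted p = 2.1e-07). Reg3g, an antimicrobial lectin of keratinocytes, was below the limit in uninjured ear and at least 18.5-fold higher. Camp, the gene of cathelicidin, an antimicrobial peptide of neutrophil granules, was not called (-0.19, adjusted p = 0.66). Cd14, the co-receptor for lipopolysaccharide, rose by 3.15 ± 0.25. Tlr13, which senses bacterial ribosomal RNA in mice, rose by 2.03.

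Macrophage genes rose in 14 of 26 cases with a median of 1.17. The count was 12 without SM/J day 7 replicate 1 and 22 without LG/J uninjured replicate 4. Fcgr4, an activating IgG receptor, had 10.18, 7.94 and 8.24 at day 7, against 5.76, 5.73 and 5.88 in uninjured ear. The groups did not overlap, and day 7 replicate 1 lay about 2 units above the other day 7 arrays (3.0 ± 0.45, adjusted p = 0.00072). Aif1, an actin-binding protein of macrophages, was more even, with 10.85, 10.61 and 10.11 at day 7, against 8.15, 8.03 and 8.07 in uninjured ear. The beta-glucan receptor Clec7a rose by 2.77 and the scavenger receptor Msr1 by 1.95. Of 14 genes of alternative activation 4 rose, namely Arg1, Chil3, Il4ra and Chil1, with Arg1 (arginase 1) at 3.36 ± 0.18. There were 7 without LG/J uninjured replicate 4.

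Antigen presentation genes differed by class in their calls. Of 11 MHC class II presentation genes limma called 0, with 2 of them higher at an unadjusted p under 0.05, and their median change was 0.27. Over all features, 5936 of 24690 had an unadjusted limma p under 0.05 in either direction. Without LG/J uninjured replicate 4 limma called 3 of the class II genes higher. Of 19 MHC class I and peptide loading genes 3 rose (15.8%, beside 5.66% of all features), and 7 without LG/J uninjured replicate 4. Their median was 0.48, or 0.25 without SM/J day 7 replicate 1, and 9 were higher at an unadjusted limma p under 0.05. The 3 rises were of the immunoproteasome subunits Psmb10 (1.31), Psmb9 (1.08) and Psmb8 (1.06), the last not called in all 12 fits. Of 16 Langerhans and dendritic cell genes 3 rose and 1 fell, with a median of 0.22, and the rises were 0 without SM/J day 7 replicate 2. The fall was of Cd207 (langerin), the marker of Langerhans cells. It had 8.58, 8.91 and 8.71 at day 7, against 9.48, 9.52 and 9.47 in uninjured ear, a fall of 0.76 (limma adjusted p = 0.0021). Of 20 T and NK cell genes 5 rose and 0 fell, including the receptors Cd6 (1.69), Ctla4 (1.33) and Icos (0.94). The list median was 0.36 and its lowest change -0.79, with 2 falls without LG/J uninjured replicate 4. The T cell markers Cd3d and Cd3e were not called with all arrays and went opposite ways. Without single arrays Cd3d ran from 0.57 to 0.91 and Cd3e from -0.57 to -0.38. Of 13 mast cell genes 2 rose and 1 fell, with 5 rises without LG/J uninjured replicate 4.

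The interferon response differed between the day 7 arrays. Of 39 genes 9 rose and 0 fell, with a median of 0.83, and SM/J day 7 replicate 1 was the highest of the day 7 arrays in 39 of 39. It lay a median of 1.11 above the mean of the other day 7 arrays. Cxcl9, a chemokine induced by interferon gamma, had 11.16, 7.31 and 6.69 at day 7, against 6.52, 6.56 and 6.45 in uninjured ear. Its change of 1.88 was not called (adjusted p = 0.19). Without day 7 replicate 1 the list had a median of 0.43, with 6 genes higher and 1 lower. Counts without other arrays ran from 5 rises (without SM/J uninjured replicate 4) to 18 (without SM/J day 7 replicate 3). Irf8, a transcription factor of myeloid cells, changed by 1.83 with all arrays and by 1.80 without replicate 1, whereas Ifi47, an interferon-induced GTPase, changed by 1.88 and 1.16.

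**Figure D2:**
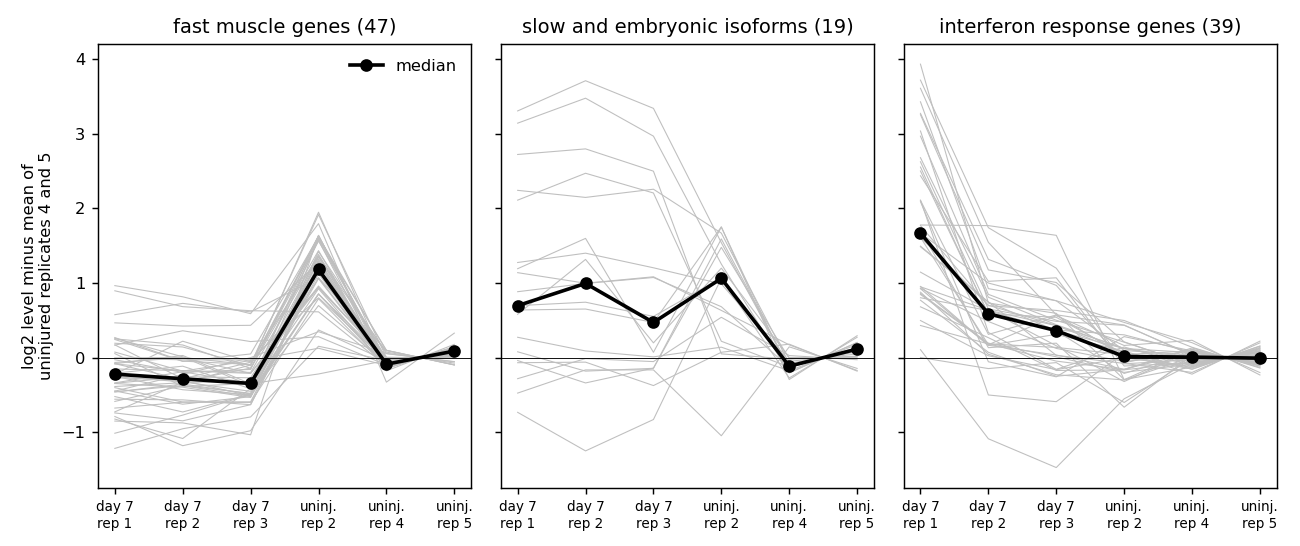
Log2 level of each gene minus the mean of uninjured replicates 4 and 5 (y axis) on the 6 SM/J arrays (x axis), for 47 fast muscle genes, 19 slow and embryonic muscle isoforms and 39 interferon response genes. Grey lines are genes and the black line is their median. Uninjured replicate 2 stands above the other arrays for fast muscle genes, and day 7 replicate 1 for interferon genes.

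Matrix genes of the wound bed rose. Of 18 provisional and matricellular matrix genes 10 rose and 1 fell (3 without SM/J uninjured replicate 2), with a median of 0.67. Tnc (tenascin C), a matrix protein of healing tissue, had 13.53, 13.46 and 13.41 at day 7, against 10.20, 10.78 and 10.71 in uninjured ear (7.49-fold, 2.90 ± 0.17). Lrrc15, a membrane protein of activated fibroblasts, rose by 3.43, Ccn4, a matricellular protein downstream of Wnt, by 2.39, and Thbs2, a thrombospondin, by 1.84. The gene that fell was Ccn2, a matricellular protein induced by TGF-beta and by tension, at 14.11, 13.89 and 14.09 at day 7, against 14.59, 14.91 and 14.89 in uninjured ear (-0.77, adjusted p = 0.0053).

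Fibrillar collagens and their processing genes followed in part. Col1a1, the main chain of type I collagen, had 12.73, 13.51 and 13.30 at day 7, against 12.69, 13.65 and 13.65 in uninjured ear. The groups overlapped, and the change of -0.15 had a 95% interval of -0.74 to 0.45 (adjusted p = 0.82). Of 23 fibrillar collagen and processing genes 5 rose and 1 fell, and the rises were 3 without SM/J day 7 replicate 2 and 10 without LG/J uninjured replicate 4. The fall was of Loxl4, a lysyl oxidase that cross-links collagen, by 1.79 (adjusted p = 8.4e-06). The rises, up to 0.81, included the hydroxylases P4ha2 (0.75) and Plod3 (0.67) and the cross-linking enzyme Loxl1 (0.81). Acta2, the smooth muscle actin of myofibroblasts and vessel walls, rose by 1.57 ± 0.21, while 3 of 21 smooth muscle and myofibroblast genes rose in all (6 without LG/J uninjured replicate 4).

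Small leucine-rich proteoglycans fell and elastic fibre genes split. Of 14 small leucine-rich proteoglycans, which organise collagen fibrils, 7 fell and 0 rose, with a median of -0.53. Fmod (fibromodulin) had 9.52, 9.73 and 9.73 at day 7, against 10.85, 11.09 and 11.20 in uninjured ear, and Omd (osteomodulin) changed by -1.80 and Chad (chondroadherin) by -1.60. All 3 were separated without overlap. Of 11 elastic fibre genes 2 rose and 2 fell, with a median of 0.12. The rises were 0 without SM/J day 7 replicate 1, and without LG/J uninjured replicate 4 the highest counts were 4 rises and 4 falls. Emilin2, an elastin-associated glycoprotein, was called higher by 0.92, a call made in 3 of the 12 fits. Eln, the gene of elastin, stood at 11.58, 11.42 and 11.67 at day 7, against 12.38, 12.74 and 12.80 in uninjured ear (-1.08 ± 0.20, adjusted p = 0.0033), and Ltbp4, which helps elastic fibres assemble, fell by 1.52.

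Proteases rose and some of their inhibitors fell. Of 32 metalloproteases and inhibitors 12 rose and 4 fell, and the falls were 2 without SM/J uninjured replicate 5. The collagenase gene Mmp13 rose by 4.02 ± 0.30 and Mmp9 by 2.87 ± 0.23. Adam12, a membrane protease of activated stromal cells, was at least 4.83-fold higher and Adamts4, an aggrecanase, rose by 2.20. The inhibitor Timp1 stood at 13.52, 13.28 and 13.13 at day 7, against 9.65, 9.60 and 9.82 in uninjured ear (12.3-fold, 3.62 ± 0.15). The matrix-bound inhibitor Timp3 went down to 12.79, 12.72 and 12.73 at day 7, against 13.67, 13.73 and 13.92 in uninjured ear (-1.03, adjusted p = 0.00025). Reck, a membrane-anchored inhibitor, changed by -1.69 ± 0.28. Of 19 coagulation and plasminogen genes 5 rose and 1 fell: Plaur, the urokinase receptor, rose by 2.14 and Plat, tissue plasminogen activator, by 1.85, while F3 (tissue factor) fell by 0.87.

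Proliferation genes rose in part, by up to 1.60. Of 35 mitosis genes 22 rose and 0 fell, with a median of 0.68, a count of 14 without SM/J day 7 replicate 2. Birc5 (survivin), a passenger protein of dividing chromosomes, had 10.46, 10.36 and 10.27 at day 7, against 8.82, 8.57 and 8.89 in uninjured ear, a 3.04-fold difference (1.60 ± 0.14). The next were Cdca3, a ligase component that triggers mitotic entry (1.26), Cenpa, the centromeric histone (1.22), and the mitotic kinases Plk1 (1.20) and Aurka (1.14). Of 39 DNA replication genes 14 rose and 0 fell, with a median of 0.39 and a largest change of 1.21 for Tk1, a thymidine kinase. Cdkn1a, the p21 inhibitor of cell division, was not called. It had 11.74, 11.86 and 11.78 at day 7, against 12.07, 12.36 and 12.17 in uninjured ear, and its change of -0.41 had a 95% interval of -0.83 to 0.02 (adjusted p = 0.23).

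Promoters of the listed mitosis genes, whether called or not, were searched for shared letters. The shares describe the list and do not bear on its rise at day 7. Mitotic genes are known for CCAAT boxes and for a short element, the CHR, that represses them outside division. Promoters of RefSeq, in mouse build GRCm38.p6, were searched on both strands from 250 bases before to 50 after the start. Promoters of 30 of the 35 mitosis genes were at hand. The letters CCAAT were in 22 (73.3%), and TTTGAA, the CHR, in 23 (76.7%), where 37.9% and 18.1% of 27025 promoters held them and 38.0% and 12.5% of the promoters of 11381 named genes tested. A match is a description of the letters and not of a bound site. The 4 promoters below are of genes with large rises that hold both. Birc5, the largest rise of the list, holds neither in this window. Capitals mark the matched letters on either strand (ATTGG is CCAAT on the other strand). They lie at chr6:124829926-124830225 (plus strand), chr5:30666636-30666935 (plus strand), chr7:122159185-122159484 (plus strand) and chr2:172370521-172370820 (minus strand).
Cdca3: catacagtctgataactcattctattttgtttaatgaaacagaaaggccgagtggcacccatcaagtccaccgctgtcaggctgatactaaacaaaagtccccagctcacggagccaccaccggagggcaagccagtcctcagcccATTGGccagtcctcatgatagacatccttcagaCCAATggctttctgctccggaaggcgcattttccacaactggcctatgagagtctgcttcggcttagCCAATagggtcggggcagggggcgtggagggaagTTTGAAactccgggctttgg
Cenpa: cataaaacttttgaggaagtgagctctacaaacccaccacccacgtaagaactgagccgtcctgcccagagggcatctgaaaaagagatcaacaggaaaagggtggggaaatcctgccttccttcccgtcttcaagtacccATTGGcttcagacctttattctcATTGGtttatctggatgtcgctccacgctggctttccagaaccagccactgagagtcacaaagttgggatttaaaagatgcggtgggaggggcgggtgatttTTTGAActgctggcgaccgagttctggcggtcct
Plk1: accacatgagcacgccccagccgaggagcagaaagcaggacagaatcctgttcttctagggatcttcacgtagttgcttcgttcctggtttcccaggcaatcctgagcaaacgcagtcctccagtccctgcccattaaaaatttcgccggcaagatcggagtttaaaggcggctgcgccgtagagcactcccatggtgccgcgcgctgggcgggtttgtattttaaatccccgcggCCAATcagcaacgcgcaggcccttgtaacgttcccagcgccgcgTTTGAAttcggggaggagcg
Aurka: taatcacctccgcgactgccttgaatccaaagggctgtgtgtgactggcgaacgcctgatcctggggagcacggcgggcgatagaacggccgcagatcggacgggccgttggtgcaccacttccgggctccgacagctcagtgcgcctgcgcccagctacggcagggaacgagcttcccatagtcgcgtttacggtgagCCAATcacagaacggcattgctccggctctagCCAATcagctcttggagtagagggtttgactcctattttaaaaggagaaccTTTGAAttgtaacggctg

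Promoters of inflammatory genes were searched for other letters. The 9-base pattern GGNNTTNCC, which covers common NF-kappaB sites, was in 4 of 9 promoters of CXC chemokines (44.4%) and in 15.8% of all promoters. It was in 22.2% of 18 promoters of CC chemokines and receptors and in 11.8% of 17 of neutrophil genes, but also in 23.3% of those of mitosis genes and 37.5% of 24 of adipocyte genes. The promoters of Il1b and S100a9 do not hold it. Cxcl2 holds it at 2 positions, in capitals below, within its promoter at chr5:90903649-90903948 (plus strand). Over the 315 promoters of named genes called at least 2-fold higher, this pattern was in 18.1%, the TATA box TATAAA in 22.9% and the AP-1 site TGANTCA in 11.7%. Over the 134 promoters of genes called at least 2-fold lower the shares were 17.9%, 5.2% and 3.7%. They were 16.5%, 9.4% and 6.0% over the named genes tested, from which both sets come, and 15.8%, 14.2% and 7.9% over all promoters.
Cxcl2: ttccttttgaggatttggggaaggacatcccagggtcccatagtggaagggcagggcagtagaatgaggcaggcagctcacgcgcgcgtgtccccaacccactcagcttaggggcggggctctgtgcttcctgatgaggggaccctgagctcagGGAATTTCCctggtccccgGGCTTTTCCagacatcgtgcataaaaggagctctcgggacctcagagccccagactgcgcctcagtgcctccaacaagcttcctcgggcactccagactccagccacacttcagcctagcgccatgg

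**Figure D3:**
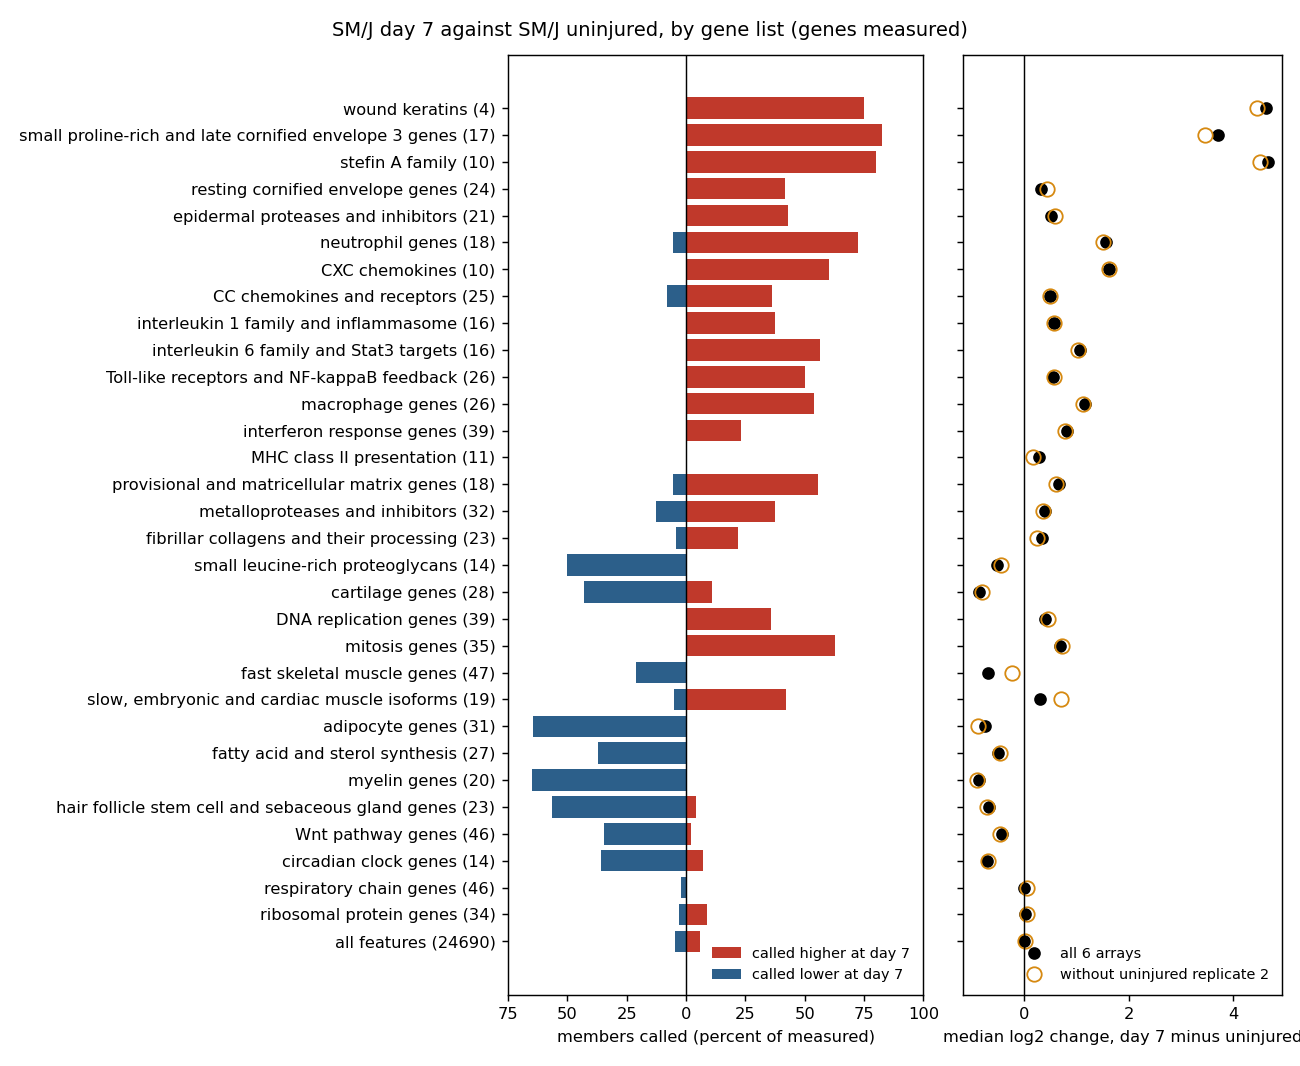
Left, percent of the measured genes of 31 lists called higher (red) or lower (blue) in SM/J day 7 ear. Right, the median log2 change of each list with all 6 SM/J arrays (black) and without uninjured replicate 2 (open circles), with all 24690 features at the bottom. The median moves most without that array for fast muscle genes (-0.70 and -0.24) and for slow and embryonic isoforms (0.31 and 0.70).

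Muscle genes depended on 1 uninjured array. Of 47 genes of fast skeletal muscle 10 fell and 0 rose, with a median of -0.70. SM/J uninjured replicate 2 was the highest of the uninjured arrays in 46 of 47, a median of 1.18 above the mean of the others. Without it 5 fell and 1 rose, and the median was -0.24. Against uninjured replicates 4 and 5 alone, all day 7 arrays lay lower in 27 of the 47 genes and higher in 5. The share of all features separated in this way was not counted, so these counts have no background beside them. The number of falls was also 2 without SM/J day 7 replicate 1 and 15 without LG/J uninjured replicate 4. Calls made in all 12 fits were of Tcap (telethonin, of the sarcomere's end disc) and Myoz3 (a myozenin of the same disc).

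The levels show the pattern. Tcap had 12.17, 12.06 and 12.28 at day 7, against 14.03, 12.81 and 13 in uninjured ear, with replicate 2 as the high one. Its change was -1.11 with all arrays and -0.74 without replicate 2 (adjusted p = 0.0092). Acta1, the actin of skeletal muscle, averaged 13.01 ± 0.01 at day 7 (SD, n = 3), against 13.83, 12.98 and 13.07 in uninjured ear. It changed by -0.29 with all arrays and by -0.02 without replicate 2, and was called in neither (adjusted p = 0.47 and 0.96).

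Isoforms of slow, embryonic and cardiac muscle rose in the same tissue. Of 19 such genes 8 rose and 1 fell, and without uninjured replicate 2 there were 9 rises and 1 fall, with medians of 0.31 and 0.70. The rises were 5 without SM/J uninjured replicate 5. Actc1, the actin of embryonic and cardiac muscle, stood at 9.66, 10.06 and 9.69 at day 7, against 7.89, 6.21 and 6.49 in uninjured ear. Replicate 2 was the highest uninjured array and still lay below all day 7 arrays. The change was 2.94 with it and 3.46 without. Myl4, the embryonic and atrial myosin light chain, was even in both groups, with 11.62, 11.69 and 11.39 at day 7, against 8.94, 8.87 and 8.91 in uninjured ear (2.66 ± 0.12, adjusted p = 8.0e-09). Chrng, the fetal subunit of the muscle acetylcholine receptor, was at least 3.22-fold higher, and Tnnc1, the troponin C of slow and cardiac muscle, rose by 2.78. Of 15 myogenic regulators 2 rose, and 4 without replicate 2. Ankrd1, a stress-induced titin-associated protein, rose by 1.46, or 1.79 without that array.

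Genes of fat cells fell. Of 31 adipocyte genes 20 fell and 0 rose, with a median of -0.75. The falls were 22 without SM/J uninjured replicate 2 (median -0.89) and 13 without SM/J day 7 replicate 2. Lep (leptin), the hormone of fat cells, had 7.80, 7.47 and 7.44 at day 7, against 8.93, 10.49 and 10.47 in uninjured ear. Here uninjured replicate 2, the array with the high muscle genes, was the low one, and the groups did not overlap (-2.39 ± 0.31, adjusted p = 0.00023). Adipoq (adiponectin) fell by 1.20 and the droplet protein Plin4 by 1.43. Of 27 genes of fatty acid and sterol synthesis 10 fell and 0 rose, led by Srebf1 (-1.19), the transcription factor of the pathway. The count was 5 without SM/J day 7 replicate 1 and 16 without LG/J uninjured replicate 4.

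Myelin genes fell as a group. Of 20 measured 13 fell and 0 rose, with a median of -0.87. Mbp, the myelin basic protein, had 9.85, 10.31 and 10.18 at day 7, against 12.06, 12.35 and 12.29 in uninjured ear, a 4.35-fold difference (-2.12 ± 0.14, adjusted p = 4.9e-07). The myelin membrane genes Pllp, Ncmap and Mag changed by -1.55, -1.53 and -1.09, and Sox10, a transcription factor of Schwann cells and melanocytes, by -1.0. Of 19 genes of repair Schwann cells and nerve growth 4 rose and 1 fell. Artn (artemin), a trophic factor of sensory neurons, rose by 1.08 and Gap43, a protein of growing axons, by 1.02, and S100b, a calcium-binding protein of Schwann cells, fat and cartilage, was the fall (-1.62).

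Cartilage genes split. Of 28 measured 12 fell and 3 rose, with a median of -0.86. Chad had 11.41, 11.65 and 11.45 at day 7, against 12.84, 13.12 and 13.36 in uninjured ear. Col9a1 and Col9a2, chains of the type IX collagen of cartilage, changed by -1.62 and -1.30, while the third chain, Col9a3, stood at 7.77, 7.68 and 7.66 at day 7, against 5.88, 6.38 and 6.21 in uninjured ear (1.55 ± 0.17). Col2a1, the main collagen chain of cartilage, also rose, with 8.22, 8.35 and 8.59 at day 7, against 6.96, 7.08 and 7.56 in uninjured ear (1.18 ± 0.18, adjusted p = 0.00073). Mia, a secreted cartilage protein, fell by 1.37. Acan (aggrecan) was called lower (-0.87, adjusted p = 0.028), a call lost without either of day 7 replicates 1 and 2 or any of the uninjured arrays.

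Genes that pattern skin and limb mesenchyme fell more often than they rose. Of 46 Wnt pathway genes 16 fell and 1 rose, with a median of -0.43, and the falls were 10 without SM/J uninjured replicate 4. Notum, a secreted Wnt inhibitor and target, had 7.09, 6.98 and 7.29 at day 7, against 8.23, 8.52 and 8.54 in uninjured ear (-1.31 ± 0.17). Lef1, a transcription factor of the pathway, was at least 1.58-fold lower, with all day 7 arrays below the limit, and the inhibitor Wif1 changed by -1.12. Of 25 FGF and hedgehog genes 8 fell (4 without SM/J day 7 replicate 1) and 1 rose, and Gli2, a hedgehog transcription factor, fell by 0.88. Of 39 TGF-beta, BMP and activin genes 9 fell and 4 rose. The falls were 4 without SM/J day 7 replicate 2, and the rises ran from 2 without SM/J day 7 replicate 1 to 8 without LG/J uninjured replicate 4. The BMP antagonist Nog (-1.38) and the ligand Gdf5 (-1.20) fell, and the activin subunit Inhba stood at 8.97, 8.69 and 8.74 at day 7, against 7.06, 6.93 and 6.70 in uninjured ear (1.90 ± 0.15).

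Among 37 mesenchymal patterning transcription factors 7 fell and 1 rose. The falls were 2 without SM/J day 7 replicate 1, and without LG/J uninjured replicate 4 there were 12 falls and 3 rises. The rise was of Sox11, a factor of embryonic and regenerating tissue, with 7.95, 8.08 and 7.68 at day 7, against 5.93, 5.80 and 5.73 in uninjured ear (2.08 ± 0.14, adjusted p = 3.4e-07). Msx1, a factor of undifferentiated limb mesenchyme, had 9.69, 9.77 and 10.10 at day 7, against 10.60, 11.22 and 11.14 in uninjured ear (-1.13 ± 0.18, adjusted p = 0.0011). Of 14 circadian clock genes 5 fell and 1 rose. The falls were 2 without SM/J day 7 replicate 1 and 10 without LG/J uninjured replicate 4, and Nr1d2 (-0.78) and Cry2 (-0.73), repressors of the clock, were called in all 12 fits. The labels give no hour of sampling.

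Housekeeping groups had medians near that of all features. Of 46 respiratory chain genes 0 rose and 1 fell (median -0.01), and of 34 ribosomal protein genes 3 rose and 1 fell (median 0.02). Of 29 glycolysis and hypoxia genes 9 rose and 1 fell, led by the carbonic anhydrase Car12 (1.31), and of 31 NRF2 and glutathione genes 5 rose and 4 fell (2 without SM/J day 7 replicate 1). In the last group the cystine transporter Slc7a11 rose by 1.96 and heme oxygenase Hmox1 by 1.58.

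The same comparison in LG/J called 2566 features (10.4%), 1343 higher (5.44%) and 1223 lower (4.95%). Of the 1397 features higher in SM/J, 811 (58.1%) were also called higher in LG/J, or 60.4% of the LG/J rises. Of the 1137 lower, 549 (48.3%) were called lower in LG/J, or 44.9% of its falls. The 2 comparisons share no arrays but were normalised together and share the estimate of spread. The difference itself was tested as the SM/J change minus the LG/J change. It was called for 105 features (0.425%), with 92 more positive in SM/J (0.373%) and 13 more negative (0.0527%). The number depended on the arrays. It was 352 without SM/J uninjured replicate 2, but 19 and 14 without SM/J uninjured replicates 4 and 5, and 21, 29 and 43 without SM/J day 7 replicates 1, 2 and 3. It was 21, 26 and 36 without LG/J day 7 replicates 1, 2 and 3, 62 and 44 without LG/J uninjured replicates 1 and 3, and 125 without LG/J uninjured replicate 4. Each of the 105 kept its sign in all 12 fits that left out 1 array, and 14 were called in all 12.

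Several of those 14 had levels below the background limit. Differences between strains are fitted values, and where levels lay below the limit a second value is given with each such level raised to it, without a test. Whether a probe reads the transcripts of both strains alike was not tested. Gsdmc2, a gasdermin gene of epithelia, had 9.68, 10.97 and 10.64 at SM/J day 7, against 6.16, 6.41 and 7.16 in SM/J uninjured ear. In LG/J it had 5.73, 5.37 and 5.97 at day 7, against 5.47, 4.95 and 5.54 uninjured, near or below the limit on every array. The changes were 3.86 in SM/J and 0.37 in LG/J, and the difference was 3.49 ± 0.45 (adjusted p = 0.0057), or 3.79 with levels raised to the limit. Prl2c4, a prolactin family gene also known as proliferin, stood at 9.12, 8.27 and 8.80 at SM/J day 7, against 5.24, 5.30 and 5.31 in SM/J uninjured ear. In LG/J the levels were 6.34, 5.50 and 5.48 at day 7, against 5.46, 5.15 and 5.36 uninjured (fitted difference 3.0 ± 0.33, adjusted p = 0.0024). The SM/J rise was at least 7.71-fold, and the difference was 2.74 with levels raised to the limit. Its close relative Prl2c3 gave a fitted 2.79, or 2.89 raised, and probes of the 2 may read each other's transcripts.

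The others named among the 14 by the same rule were Cstdc4, of the stefin A family, Klra16, of the Ly49 receptors of natural killer and myeloid cells, and Scgb2b27, a secretoglobin. Cstdc4 rose in both strains, by a fitted 5.20 in SM/J and 1.88 in LG/J from uninjured levels below the limit (difference 3.33 ± 0.41, adjusted p = 0.0048). Raised to the limit, the changes were 4.87 and 1.38 and the difference 3.49. Klra16 had 8.16, 7.29 and 7.14 at SM/J day 7, against 5.53, 5.61 and 5.37 in SM/J uninjured ear, and all 6 LG/J arrays were below the limit. The rise in SM/J was at least 3.35-fold, and the difference of the strains with levels raised to the limit was 1.73. Scgb2b27 had 8.27, 8.12 and 8.32 at SM/J day 7, against 5.54, 5.35 and 5.26 in SM/J uninjured ear. In LG/J it was high in both groups, at 9.63, 9.92 and 9.78 at day 7, against 9.62, 8.89 and 9.37 uninjured, and its fitted difference of changes was 2.37 ± 0.24 (adjusted p = 0.0013). The SM/J rise was at least 5.46-fold, and the difference was 1.97 with levels raised to the limit.

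Inflammatory genes of the difference rested on fewer fits. Saa3 rose by 5.54 in SM/J and 2.94 in LG/J (difference 2.60 ± 0.49, adjusted p = 0.041), and Cxcl2, at least 14.3-fold higher in SM/J, had a fitted difference of 3.08 ± 0.59 (adjusted p = 0.041). With levels raised to the limit Cxcl2 changed by 3.84 in SM/J and 0.73 in LG/J, a difference of 3.11. Each was called in 2 of the 12 fits. Cd14 rose by 3.15 in SM/J and 1.06 in LG/J (2.08 ± 0.35), a call made in 3 of 12. Chil3, a chitinase-like protein of macrophages, had 11.62, 10.72 and 10.99 at SM/J day 7, against 7.67, 8.68 and 8.39 in SM/J uninjured ear. In LG/J it had 5.73, 5.70 and 6.47 at day 7, against 5.70, 5.51 and 5.32 uninjured, near the limit throughout, and the fitted difference of 2.41 (2.63 raised) was called in 5 of 12. For Il1b the difference of 2.42 and for S100a9 that of 1.58 did not pass (adjusted p = 0.11 and 0.096).

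A more negative change in SM/J was called for 13 features with all arrays, but for 613 of 1245 without both SM/J uninjured replicate 2 and LG/J uninjured replicate 4, and for 243 of 836 with array weights. Mcpt8, a protease that marks basophils, had 5.40, 5.82 and 5.33 at SM/J day 7, against 4.90, 5.41 and 5.45 in SM/J uninjured ear, all near or below the limit. In LG/J it had 7.52, 6.89 and 7.82 at day 7, against 5.28, 4.61 and 4.62 uninjured (difference -2.30 ± 0.36, adjusted p = 0.020, called in 7 of 12 fits), or -1.59 with levels raised to the limit. Slc13a3, a dicarboxylate transporter, changed by 0.25 in SM/J and 2.33 in LG/J (difference -2.08). Of its SM/J uninjured arrays 2 lay below the limit, and the difference was -2.13 with levels raised to it. Grm4, a glutamate receptor gene, changed by -1.23 in SM/J and 0.18 in LG/J (difference -1.41).

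**Figure D4:**
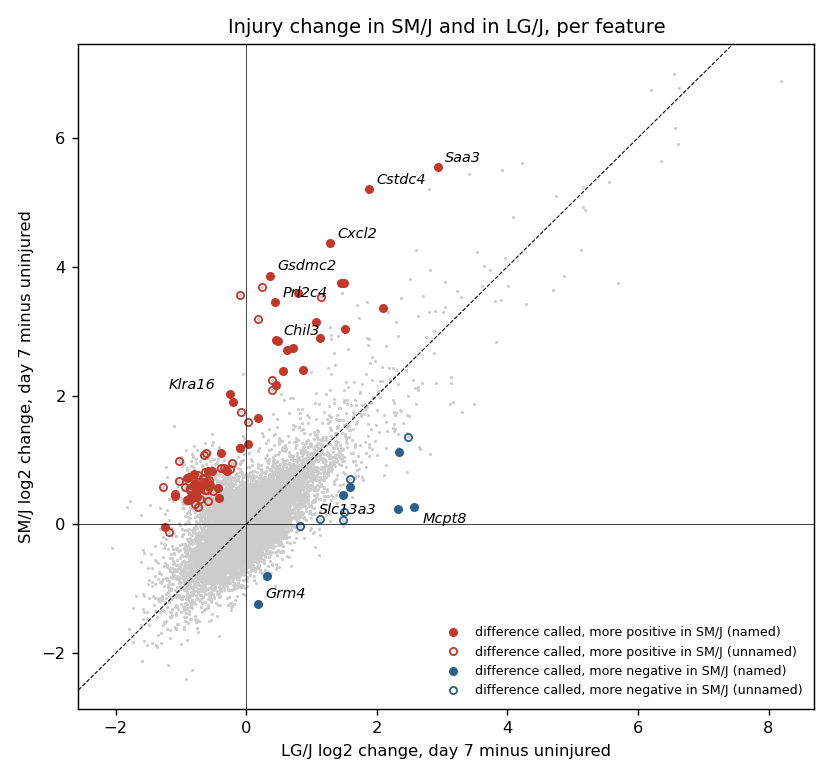
Log2 change at day 7 against uninjured ear in SM/J (y axis) and in LG/J (x axis) for each of 24690 features (grey), with the line of equal change. Red marks the 92 features whose change was called more positive in SM/J and blue the 13 called more negative, filled for named genes and open for unnamed features. Gsdmc2, Prl2c4 and Klra16 lie far above the line with LG/J changes near 0, and their LG/J levels were mostly near or below the background limit.

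Of the 92 features more positive in SM/J, 43 had a gene name and 49 had none, where 42.4% of all features had none. In 36 of them the SM/J change was at least 1. There were 28 features called higher in SM/J and lower in LG/J, 7 of them named and 24 of them called in the difference. Their changes were modest, at 0.42 to 0.99 in SM/J and -1.03 to -0.41 in LG/J. No feature was called lower in SM/J and higher in LG/J.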

How the data were processed

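Trizol extracts of total RNA from 12 ear samples carried a biotin label and were read on Illumina mouse bead arrays with streptavidin-Cy3, per the labels' protocols. Arrays were summarised in BeadStudio, per the submitters' processing notes. In the deposited files of single arrays every probe has a linear average intensity, and the values show no normalization between arrays. The deposited table of the series holds intensities of 28845 probes after a normalization between arrays that is not given in the sources used here, and it served as an alternative. Without detection p-values or control probes, background was estimated by limma's normexp with an offset of 16 in place of neqc. Values were put on the log2 scale and quantile normalised over the 12 arrays. Probes in the lowest 25% of mean level were dropped and 33960 of 45281 stayed. In all, 23604 probes had 1 gene symbol, 12 several and 21665 none in the platform table used, and symbols are those of that table, which can be old. A gene took the values of its brightest probe on average, and probes without a single name stayed separate, giving 14218 named genes and 10472 unnamed features.

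Groups were compared in R 4.3.3 with limma 3.58.1, with 1 mean for each of 4 groups and 1 shared spread, so the LG/J arrays enter the spread behind SM/J p-values. Array weights, an alternative, used statmod 1.5.0. Benjamini-Hochberg adjustment ran over all 24690 features. Changes carry the fit's standard errors. With 3 arrays against 3 the smallest exact permutation p is 0.1, so no such test was used. The method was also run on simulated data with independent normal noise. Those data hold no array that departs over whole gene groups, so no conclusion is drawn from them here. The background limit of each array is the 95% quantile of a normal distribution fitted to the lower side of its signals. The number of arrays limits the precision.

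The comparison, the genes and the 68 gene lists, with 1812 entries of which 1477 were measured, were chosen with earlier results of these data known. Named genes are the 25 largest rises and falls without overlap, up to 6 called members of each list with up to 3 against its direction, the member with the lowest p of a list without a call, the 12 largest calls each way of the difference between strains, genes with the widest range within a group, and checks fixed by name. Plin1, Cxcr2, Cd3d and Cd3e appear as markers fixed by name, and Krt14 and Camp were named after their values were seen. Raising levels to the background limit was chosen after seeing the data. Other probes of called genes moved the same way in 1244 of 1480 cases. Of the 1480, 485 were also called in that direction and 5 were called the opposite way. Arrays were not paired by replicate number, since 10 pairs that share a number had correlations of departures from -0.0928 to 0.186. Slide and scan date are not given in the sources used here, so no batch could be tested. Alternatives changed the background correction, the normalization, the filter, the probe choice, the spread model and the arrays used.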

Additional observations from a re-analysis of the deposited data

Results flagged for a closer look

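For 14 of the named genes the injury change differed between the strains by a direct test of the difference (SM/J change minus LG/J change, limma adjusted p under 0.05, n = 3 arrays per group). The arrays per group are few, and the calls differ in how many of the 12 fits without 1 array made them. Gsdmc2 (difference 3.49), Cstdc4 (3.33), Prl2c4 (3.0), Prl2c3 (2.79), Scgb2b27 (2.37) and Klra16 (2.27, adjusted p = 0.0074) were called in all 12. These are fitted values. With levels below the background limit raised to it, without a test and chosen after seeing the data, the differences were 1.73 for Klra16, 1.97 for Scgb2b27 and 2.74 for Prl2c4.

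Mcpt8 (-2.30) was called in 7 of 12, Slc13a3 (-2.08, adjusted p = 0.0251) in 6, Chil3 (2.41, adjusted p = 0.0251) in 5 and Grm4 (-1.41, adjusted p = 0.0413) in 4. Cd14 (2.08, adjusted p = 0.0251) was called in 3, and Cxcl2 (3.08), Saa3 (2.60) and Arg1 (1.26, with changes of 3.36 in SM/J and 2.10 in LG/J, adjusted p = 0.049) in 2 each. All 14 kept the sign of their difference in all 12 fits.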

How the results depend on the processing

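The 2534 calls in SM/J stayed within 1.5 times that number under other background corrections, scalings, filters, probe choices, the SM/J arrays alone and limma's trend (2182 to 3198). They were 5692 with estimated array weights and 5076 when uninjured replicates 2 of SM/J and 4 of LG/J were both left out, and ran from 1454 to 4456 when single arrays were left out. The 105 calls of the difference were 76 to 135 under the same settings other than the SM/J arrays alone, 836 with array weights, 1245 without both, and 14 to 352 without single arrays. The share of higher calls in the difference was 87.6%, 70.9% with array weights and 50.8% without both arrays. With the replicate number as a block there were 1243 calls in SM/J (46.3% higher) and 10 of the difference. The SM/J groups share only replicate number 2, and the numbers did not pair the arrays. The median of the fast muscle genes (-0.70) was negative under each setting, from -1.08 with the block and -0.91 with median scaling to -0.42 with array weights, and from -0.96 to -0.24 without single arrays.

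Among the named genes 3 that were not called changed sign, with Cd3d and Cd3e followed only in the fits without 1 array. Krt17 was -0.19 with the replicate block and ran from -0.0021 (without SM/J uninjured replicate 5) to 0.12 (without SM/J uninjured replicate 2), and Slc13a3 was -0.26 in SM/J with the block. Without single arrays Col1a1 ran from -0.47 (without SM/J uninjured replicate 2) to 0.076 (without SM/J day 7 replicate 1). Some called genes kept their call in all 24 settings but moved in size. Mbp ran from -2.27 to -0.89, Col9a1 from -1.79 to -0.57 and Msx1 from -1.33 to -0.47. Mmp13 ran from 1.815 to 4.14 and Chrng from 1.10 to 2.27. The cause of these changes was not tested. Fits with 1 array left out assume that the remaining pair varies like the other groups. Signals near the background limit bound the folds of genes that were low in 1 group.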

Other observations

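Further gene groups moved in both directions at SM/J day 7. Of 11 EGF family ligands and receptors 3 rose and 3 fell, the falls being 1 without SM/J day 7 replicate 1. The keratinocyte growth factors Epgn and Hbegf rose by 1.47 and 1.29, and Nrg1 (neuregulin 1), below the background limit in uninjured ear, was at least 1.76-fold higher, while Nrg4 fell by 0.84. Of 17 complement genes 5 rose and 2 fell, and the rises were 3 without SM/J day 7 replicate 1. Cfb (factor B of the alternative pathway) had 11.22, 10.59 and 10.23 at day 7, against 8.75, 9.02 and 8.89 in uninjured ear (1.79 ± 0.31, limma adjusted p = 0.0019), and Cd55, a membrane protein that restrains complement, fell by 0.72.

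Of 21 basement membrane genes 2 rose and 5 fell, and the falls were 1 without SM/J day 7 replicate 1, with 5 rises without LG/J uninjured replicate 4. The collagen genes Col4a1 and Col18a1 rose by 0.87 and 1.24, and Col4a5 fell by 1.04. Of 19 metal handling genes 4 rose and 2 fell. The falls were 1 without SM/J day 7 replicate 1. Mt2, a metallothionein, rose by 1.48. Trf (transferrin), the iron carrier, had 12.30, 12.41 and 12.53 at day 7, against 13.54, 13.97 and 14.21 in uninjured ear (-1.50 ± 0.27, adjusted p = 0.0024). All changes named in these paragraphs were called in all 12 fits without 1 array.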
